A study of Homo sapiens with 6 samples.

Results

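Messenger RNA counts of a renal carcinoma line were read for 10 genes of the NF-kB pathway that serve as its subunits, feedback regulators, early cytokines and classical targets: NFKB1, NFKB2, RELB, NFKBIA, TNFAIP3, BIRC3, ICAM1, TNF, IL1B and IL1A. They were taken by symbol from a table of 19009 genes, in which 9 of the 10 have a row. IL1A was not analysed here. The cells were RCC10, an established line of human clear cell renal carcinoma, grown in DMEM with 10% fetal bovine serum. The 6 poly(A)-selected libraries form 3 groups of 2: untreated parental cells, HIF double-knockout cells, which received lentiviral guide RNAs against HIF-1alpha and HIF-2alpha and puromycin selection, and VHL-restored cells, which received a lentivirus carrying VHL. The labels name no non-targeting guide, empty vector or puromycin-treated control, so effects of virus and selection cannot be told apart from those of the HIF or VHL change. The sources used here do not give whether the engineered cells were clones or pools, which promoter drove VHL, or whether replicates were separate cultures. A p-value here reflects the spread between libraries alone, and that spread may be technical.

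NF-kB proteins are dimers of Rel-family subunits that are held in the cytoplasm by IkB proteins. In the canonical branch, signals such as TNF or interleukin-1 activate the IKK kinase complex, which marks IkB-alpha for destruction and frees RELA-containing dimers to enter the nucleus. In the non-canonical branch, receptors such as the lymphotoxin beta receptor and CD40 stabilise the kinase MAP3K14, and processing of the NFKB2 precursor then yields dimers with RELB. Several NF-kB targets are themselves parts of the pathway: NFKBIA and TNFAIP3 shut it down, and NFKB1, NFKB2 and RELB renew its subunits. In clear cell renal carcinoma loss of VHL stabilises the HIF alpha subunits, and VHL has also been linked to NF-kB signalling.

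The promoters are shown here because the kappa-B element is the sequence that NF-kB dimers bind. Any part of these elements in the changes below was not tested. Sequences are from RefSeq on GRCh38.p14 and span 250 bases before to 50 bases after an annotated transcription start, written 5′ to 3′ on the strand of the gene. Capitals mark matches to the kappa-B consensus, searched on both strands, and overlapping matches run together. The consensus was GGGRNNYYCC, where R is A or G, Y is C or T and N is any base. Of the 9 genes with counts, 8 had a promoter entry and 5 of those 8 held a match in at least 1 window. These were NFKBIA, TNFAIP3, BIRC3, NFKB1 and NFKB2. Of all 34943 promoter windows of this length 11.3% held a match, and of all 27167 genes 13.3% had a window with a match. RELB had no entry. A match is a description of letters, not of binding, and a window without a match may still hold a site that departs from this consensus. The windows of NFKBIA (chr14:35404700-35404999, minus strand), TNFAIP3 (chr6:137867009-137867308, plus strand), BIRC3 (chr11:102317234-102317533, plus strand), NFKB1 (chr4:102501109-102501408, plus strand) and NFKB2 (chr10:102394328-102394627, plus strand) are followed by that of ICAM1 (chr19:10270870-10271169, plus strand), which held no match and is shown for comparison.
NFKBIA: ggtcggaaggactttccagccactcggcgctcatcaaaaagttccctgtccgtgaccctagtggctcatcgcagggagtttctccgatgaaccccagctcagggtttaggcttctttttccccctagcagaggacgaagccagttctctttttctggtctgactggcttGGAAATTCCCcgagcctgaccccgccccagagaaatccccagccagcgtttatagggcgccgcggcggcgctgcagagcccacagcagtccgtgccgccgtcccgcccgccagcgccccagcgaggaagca
TNFAIP3: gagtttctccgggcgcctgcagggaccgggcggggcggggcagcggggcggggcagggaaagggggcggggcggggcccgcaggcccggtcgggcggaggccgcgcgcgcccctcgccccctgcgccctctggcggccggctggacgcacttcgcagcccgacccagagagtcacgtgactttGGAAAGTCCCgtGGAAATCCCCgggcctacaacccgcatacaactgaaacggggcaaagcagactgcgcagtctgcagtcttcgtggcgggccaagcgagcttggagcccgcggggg
BIRC3: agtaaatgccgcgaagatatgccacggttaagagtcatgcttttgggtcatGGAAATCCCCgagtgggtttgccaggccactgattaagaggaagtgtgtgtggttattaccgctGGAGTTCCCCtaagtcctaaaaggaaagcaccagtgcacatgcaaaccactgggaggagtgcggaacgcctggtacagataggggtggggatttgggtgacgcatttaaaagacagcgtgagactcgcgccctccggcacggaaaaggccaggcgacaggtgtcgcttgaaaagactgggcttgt
NFKB1: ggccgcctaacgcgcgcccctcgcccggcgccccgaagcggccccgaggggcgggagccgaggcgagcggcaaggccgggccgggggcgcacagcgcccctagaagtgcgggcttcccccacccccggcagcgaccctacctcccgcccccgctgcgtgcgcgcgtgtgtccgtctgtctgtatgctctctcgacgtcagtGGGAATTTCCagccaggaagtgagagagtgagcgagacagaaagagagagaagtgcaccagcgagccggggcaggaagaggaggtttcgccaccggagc
NFKB2: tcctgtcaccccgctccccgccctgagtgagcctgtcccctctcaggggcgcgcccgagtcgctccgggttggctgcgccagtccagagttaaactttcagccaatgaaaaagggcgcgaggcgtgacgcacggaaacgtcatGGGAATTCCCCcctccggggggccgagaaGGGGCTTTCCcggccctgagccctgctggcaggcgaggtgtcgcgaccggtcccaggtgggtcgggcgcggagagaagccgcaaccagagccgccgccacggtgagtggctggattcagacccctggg
ICAM1: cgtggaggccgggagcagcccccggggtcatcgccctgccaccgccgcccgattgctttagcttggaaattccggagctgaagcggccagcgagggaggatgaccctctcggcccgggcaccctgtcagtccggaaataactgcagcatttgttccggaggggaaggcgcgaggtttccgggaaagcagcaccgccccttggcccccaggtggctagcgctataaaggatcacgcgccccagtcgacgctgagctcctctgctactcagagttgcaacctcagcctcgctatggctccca
The NFKBIA match lies 81 to 72 bases before the start site. TNFAIP3 has a pair of matches, 67 to 58 and 55 to 46 bases before the start. BIRC3 has a pair farther out, 199 to 190 and 135 to 126 bases before the start. The NFKB1 match lies 49 to 40 bases before the start, and its other annotated window held none. NFKB2 has 3 annotated windows. The one shown holds overlapping matches from 107 to 97 bases and another from 78 to 69 bases before the start, a further window also held matches, and the remaining window held none. No match was found in the windows of ICAM1, TNF and IL1B. The ICAM1 window does hold tggaaattcc, which departs from the consensus only in its opening letter, so it cannot be read as lacking a kappa-B element. The short sequences ACGTG or GCGTG, the core of the hypoxia response element that HIF binds, were found on either strand in 5 of the same 8 genes, and in 48.4% of all promoter windows and 52.4% of all genes.

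Total counts per library ranged from 22248126 to 29929116, and the 18273 genes with any count were tested. EPAS1, the gene of HIF-2alpha, was 350.5 CPM in parental and 46.2 CPM in double-knockout cells, and HIF1A was 71.2 and 30.6 CPM and reached 295.2 CPM in VHL-restored cells, 4.15-fold above parental cells (adjusted p = 1.5e-22, edgeR; CPM, depth-scaled counts, here with effective library sizes by TMM). VHL was 39.1 CPM in parental and 687.1 CPM in VHL-restored cells. These data hold no protein levels, so "without HIF" below names the double-knockout group and is not a measured absence of HIF. Renal markers were present in every library, with PAX8 between 296.7 and 415.8 CPM, whereas CA9, a hypoxia-induced carbonic anhydrase of this tumour type, had 1 count in all 6 libraries together. Values below are group means ± SD (n = 2), a fold is the ratio of group means, and a change was called at an adjusted p of 0.05 in edgeR's quasi-likelihood test over all tested genes.

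The subunit genes of NF-kB were all expressed, and they did not move alike. NFKB1 encodes a precursor that is cut to a DNA-binding subunit of canonical dimers. It was at 61.6 and 59.9 CPM in parental libraries, at 99.3 and 96.3 CPM with HIF knocked out, and at 96.2 and 97.6 CPM with VHL restored. Both engineered groups lay above the parental libraries, and they overlapped each other. NFKB1 rose 1.61-fold in double-knockout cells and 1.60-fold in VHL-restored cells (log2 fold changes 0.69 ± 0.07 and 0.67 ± 0.07, SE; adjusted p = 1.3e-10 and 2.3e-10, edgeR). Between the engineered lines its log2 fold change was 0.01 ± 0.06 (SE, adjusted p = 0.897, edgeR), and its sign turned under other scalings.

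NFKB2 encodes the precursor of the non-canonical branch, which also acts as an IkB-like inhibitor until it is processed. It stood at 48.9 and 46.9 CPM in parental libraries, 145.4 and 128.8 CPM in double-knockout libraries and 34.0 and 33.9 CPM in VHL-restored libraries. The 3 groups did not overlap, and parental cells lay in the middle. NFKB2 rose 2.86-fold in double-knockout cells (log2 fold change 1.52 ± 0.07, adjusted p = 5.0e-18, edgeR). In VHL-restored cells it fell by 0.50 ± 0.08 on the log2 scale (adjusted p = 1.5e-06, edgeR). It was 4.04-fold higher in double-knockout than in VHL-restored cells (adjusted p = 9.0e-21, edgeR).

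RELB, the usual partner of processed NFKB2, stood at 10.6 and 10.0 CPM in parental libraries. It reached 46.7 and 42.0 CPM in double-knockout libraries and 22.5 CPM in each VHL-restored library. The groups did not overlap, and unlike NFKB2 the parental cells were the lowest group. RELB rose 4.31-fold without HIF (adjusted p = 4.8e-19, edgeR) and 2.18-fold with VHL restored (adjusted p = 1.1e-11, edgeR). It was 1.97-fold higher in double-knockout than in VHL-restored cells (log2 difference 0.98 ± 0.08, adjusted p = 4.6e-12, edgeR).

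The remaining subunits set these changes in proportion. RELA, the main transactivating subunit, was 72.4 ± 1.41 CPM in parental cells and rose 1.49-fold, to 107.8 ± 7.11 CPM, without HIF and 1.23-fold, to 89.1 ± 1.38 CPM, with VHL restored (adjusted p = 7.3e-09 and 3.0e-04, edgeR). REL, a subunit best known from lymphocytes, was at 4.30 ± 0.408 CPM in parental cells and passed in neither comparison with them (adjusted p = 0.199 and 0.201, edgeR). Levels of different genes were compared per kilobase of merged exons in GENCODE release 29, which can be longer than the transcript expressed. Here and below, an SD covers the libraries and not this length, so a close order between genes is uncertain. On the scale of merged exons RELA was the most abundant subunit transcript in parental cells, at 13.3 ± 0.258 CPM per kilobase. It was followed by NFKB2 at 10.7 ± 0.312, NFKB1 at 9.71 ± 0.193, RELB at 3.39 ± 0.133 and REL at 0.326 ± 0.0310. In double-knockout cells NFKB2 led, at 30.6 ± 2.61 CPM per kilobase, ahead of RELA at 19.7 ± 1.30, NFKB1 at 15.6 ± 0.331 and RELB at 14.6 ± 1.10. The means of NFKB1 and RELB differed by less than the SD of RELB. In VHL-restored cells RELA led again, at 16.3 ± 0.252 CPM per kilobase, with NFKB1 next at 15.5 ± 0.163, and NFKB2 at 7.57 ± 0.00524 lay close to RELB at 7.41 ± 0.00513.

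The ratio of NFKB2 to NFKB1 per length describes the balance of the 2 precursor transcripts. Parental libraries gave 1.11 and 1.09, double-knockout libraries 2.04 and 1.87, and VHL-restored libraries 0.493 and 0.485. The ratio of RELB to RELA per length was 0.256 ± 0.00504 in parental cells, against 0.741 ± 0.00681 after HIF knockout and 0.455 ± 0.00671 after VHL return. Neither ratio overlapped between groups. The NFKB2 share was thus highest in double-knockout and lowest in VHL-restored cells, whereas the RELB share was lowest in parental cells.

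**Figure D1:**
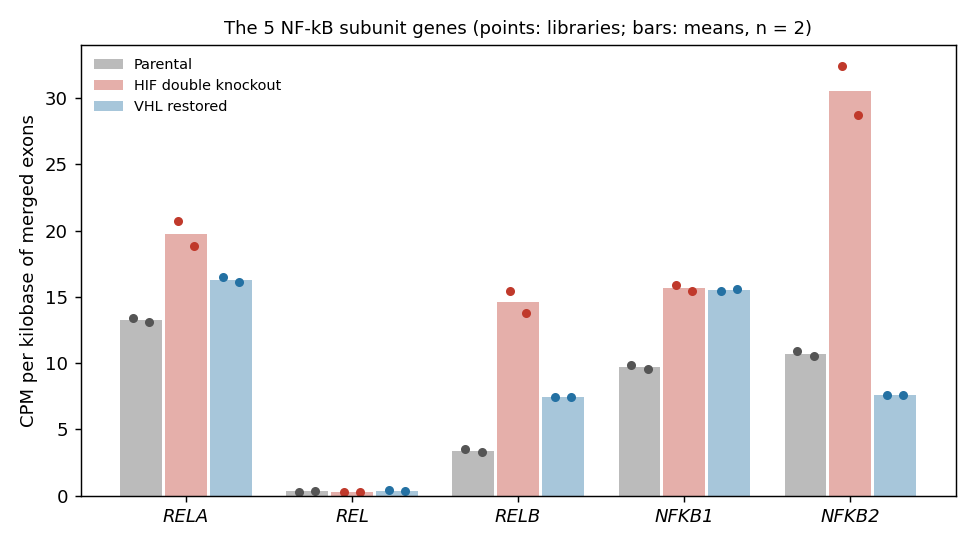
Levels of the 5 NF-kB subunit genes in CPM per kilobase of merged exons (y axis, linear, from 0). Points are libraries and bars are group means of 2 libraries, with parental in grey, HIF double knockout in red and VHL restored in blue; NFKB2 is the tallest red bar at 30.6 and among the shorter blue bars at 7.57.

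The feedback regulators rose in both engineered lines, and further in the double knockout. NFKBIA encodes IkB-alpha, the inhibitor that is degraded when the pathway is switched on and made anew by NF-kB itself. Parental libraries held 27.2 and 26.0 CPM, double-knockout libraries 119.3 and 119.5 CPM, and VHL-restored libraries 43.4 and 45.8 CPM. No groups overlapped. NFKBIA rose 4.49-fold in double-knockout cells (log2 fold change 2.17 ± 0.07, adjusted p = 8.0e-22, edgeR) and 1.68-fold in VHL-restored cells (0.75 ± 0.08, adjusted p = 5.2e-10, edgeR). The 2.68-fold difference between the engineered lines also passed (adjusted p = 1.3e-17, edgeR).

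TNFAIP3 encodes a ubiquitin-editing enzyme that ends signalling from the TNF receptor. It stood at 16.4 and 19.7 CPM in parental libraries, which spread more widely than the 60.7 and 60.6 CPM of the double knockout. VHL-restored libraries held 33.1 and 29.8 CPM, between the other groups and overlapping neither. TNFAIP3 rose 3.36-fold in double-knockout cells and 1.74-fold in VHL-restored cells (log2 fold changes 1.76 ± 0.09 and 0.81 ± 0.09, adjusted p = 1.5e-17 and 3.6e-09, edgeR). The engineered lines differed 1.93-fold (adjusted p = 8.9e-12, edgeR).

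BIRC3 encodes an inhibitor-of-apoptosis ubiquitin ligase that works with TRAF2 at the TNF receptor and, in resting cells, helps to degrade MAP3K14. BIRC3 stood at 41.1 and 44.5 CPM before engineering, at 255.9 and 265.3 CPM in the double knockout, and at 110.0 and 108.0 CPM with VHL restored. On the log2 scale it had the widest range of group means among the genes present in every group, and no groups overlapped. BIRC3 rose 6.08-fold in double-knockout cells (log2 fold change 2.61 ± 0.07, adjusted p = 6.5e-25, edgeR) and 2.54-fold in VHL-restored cells (1.35 ± 0.07, adjusted p = 2.1e-17, edgeR). The difference of 2.39-fold between the engineered lines passed as well (adjusted p = 1.7e-17, edgeR).

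BIRC2, the close paralog that lies beside BIRC3 on chromosome 11, went from 67.0 ± 2.32 to 144.2 ± 4.25 CPM in the double knockout, a 2.15-fold rise. In VHL-restored cells BIRC2 was 61.1 ± 2.57 CPM and did not pass (log2 fold change -0.13 ± 0.07, adjusted p = 0.108, edgeR). Per length, the ratio of BIRC3 to BIRC2 was 0.385 ± 0.00827 in parental cells, 1.09 ± 0.00439 in the double knockout and 1.08 ± 0.0318 with VHL restored. The ratio was therefore higher in both engineered lines than in parental cells, and the engineered lines overlapped.

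ICAM1 encodes the adhesion molecule that leukocyte integrins bind, and it is a classical target of TNF signalling. It was the most abundant of the 9 genes per length in each group, at 32.8 ± 1.11, 87.7 ± 5.30 and 27.0 ± 1.16 CPM per kilobase in parental, double-knockout and VHL-restored cells. In CPM the parental libraries held 124.4 and 118.6, the double-knockout libraries 339.1 and 311.3, and the VHL-restored libraries 97.2 and 103.3. As for NFKB2, parental cells lay in the middle and no groups overlapped. ICAM1 rose 2.68-fold in double-knockout cells (log2 fold change 1.42 ± 0.06, adjusted p = 9.8e-19, edgeR) and was 3.24-fold higher there than in VHL-restored cells (adjusted p = 1.6e-20, edgeR). It fell by 0.28 ± 0.06 on the log2 scale in VHL-restored cells (adjusted p = 3.7e-04, edgeR). That small decrease did not pass without parental replicate 1 (log2 fold change -0.23, adjusted p = 0.0574, edgeR).

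Per length, the order of the other genes differed between groups. In parental cells NFKBIA at 11.2 ± 0.340 and NFKB2 at 10.7 ± 0.312 CPM per kilobase came next after ICAM1, in that order and with libraries that did not overlap. BIRC3 followed NFKB1 at 5.70 ± 0.320, and TNFAIP3 at 3.58 ± 0.458 could not be separated from RELB. In double-knockout cells NFKBIA was at 50.3 ± 0.0569 and BIRC3 at 34.7 ± 0.881 CPM per kilobase, above NFKB2, and TNFAIP3 at 12.0 ± 0.0126 was the lowest of the 7 genes. In VHL-restored cells the order after ICAM1 was NFKBIA at 18.8 ± 0.722, NFKB1, BIRC3 at 14.5 ± 0.182, NFKB2, RELB and TNFAIP3 at 6.23 ± 0.455 CPM per kilobase.

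**Figure D2:**
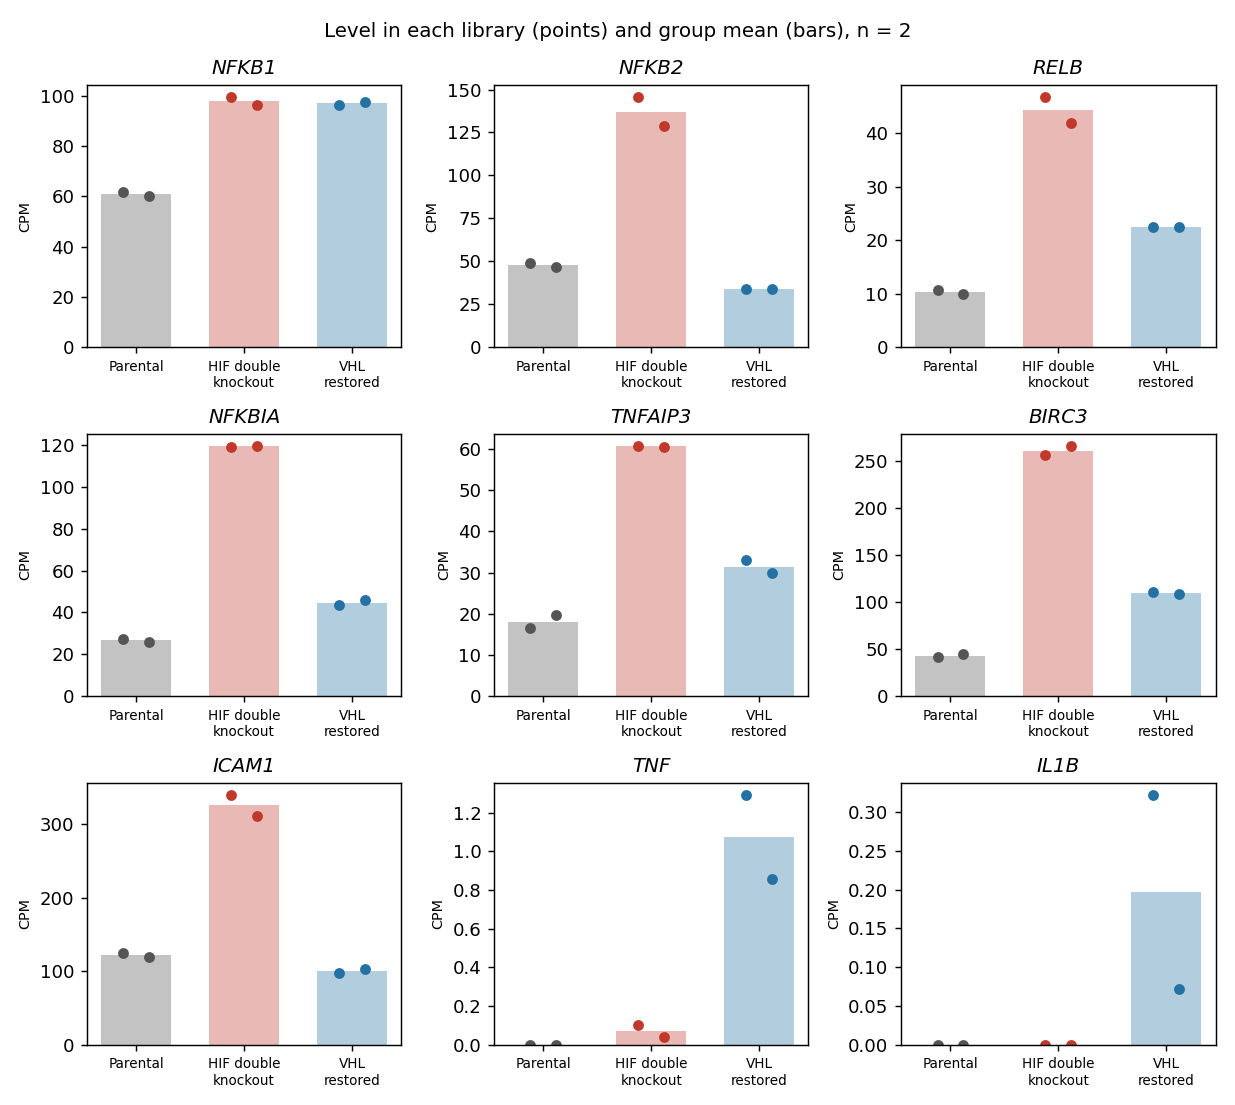
CPM of the 9 genes (y axes, linear, from 0, a separate scale for each gene) in the 3 groups on the x axis. Points are the 2 libraries of a group and bars are group means; BIRC3 runs from 42.8 in parental to 260.6 in double-knockout cells, NFKB2 and ICAM1 are lowest in VHL-restored cells, and TNF and IL1B are near 0 outside them.

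The early cytokines were rare or not detected, and they followed a different order. TNF, the cytokine that is the best-known activator of the pathway, had 0 counts in both parental libraries, 3 and 1 counts in the double-knockout libraries and 36 and 24 counts in the VHL-restored libraries. The latter are 1.29 and 0.858 CPM. A count of 0 allows up to 3 counts, or 0.101 and 0.132 CPM in the 2 parental libraries, counting error only. TNF was higher in VHL-restored than in parental cells (adjusted p = 1.3e-07, edgeR). Its VHL-restored mean was 18.7-fold above a floor of 3 counts over the parental group, with the VHL-restored counts taken as observed. TNF was 15.2-fold higher in VHL-restored than in double-knockout cells, with a 95% exact counting interval of 5.47 to 55.9 (adjusted p = 2.2e-06, edgeR). The 4 counts of double-knockout cells did not pass against parental cells (adjusted p = 0.0833, edgeR).

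IL1B, the secreted interleukin that drives fever and acute inflammation, had 0 counts in all 4 parental and double-knockout libraries. The VHL-restored libraries held 9 and 2 counts, or 0.322 and 0.0715 CPM. On these 11 counts IL1B was called higher than in parental and in double-knockout cells (adjusted p = 0.0201 and 0.0173, edgeR). Its mean was 3.43-fold and 3.61-fold above a floor of 3 counts over those groups, with the 11 counts taken as observed. The 2 counts of VHL-restored replicate 2 are fewer than the 3 counts that a count of 0 allows. DESeq2 did not call either difference (adjusted p = 0.428 and 0.409), nor did edgeR without VHL-restored replicate 1 (adjusted p = 0.295 and 0.281). The calls also ended without parental replicate 1 or 2 (adjusted p = 0.152 and 0.114, edgeR) and without double-knockout replicate 1 or 2 (adjusted p = 0.117 and 0.100, edgeR).

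TNF and IL1B had their highest mean in VHL-restored cells, and the 7 other genes in the double knockout, where NFKB1 overlapped with the VHL-restored libraries. Of the 9 genes, 7 rose and 0 fell in double-knockout against parental cells, and TNF and IL1B did not pass. Of all tested genes 54.1% passed in that comparison, 26.6% higher and 27.5% lower. At least 2-fold increases were found for 6 of the 9, against 6.06% of all genes, and such decreases for 0, against 10.3%. In VHL-restored against parental cells 7 rose and 2 fell, where 54.2% of all genes passed, 26.5% higher and 27.7% lower. At least 2-fold increases numbered 4 of 9, against 6.13% of all genes, and 2 of those 4 were TNF and IL1B. No member of the list fell 2-fold or more there, against 8.4% of all genes. The median log2 fold change of the 9 genes was 1.76 and 0.81 in the 2 comparisons, and 0.00 over all genes in each. Both comparisons use the same parental libraries. The genes were chosen with earlier results of these data known, and the shares cover all 18273 genes with any count, including barely expressed ones. The contrast with all genes is therefore a description and not a test. In the direct comparison of the engineered lines, 6 of 9 were higher in double-knockout cells, 2 were lower and 1 did not pass, where 56.0% of all genes passed, 28.0% in each direction. At least 2-fold, 4 were higher and 2 lower, against 7.18% and 9.45% of all genes.

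**Figure D3:**
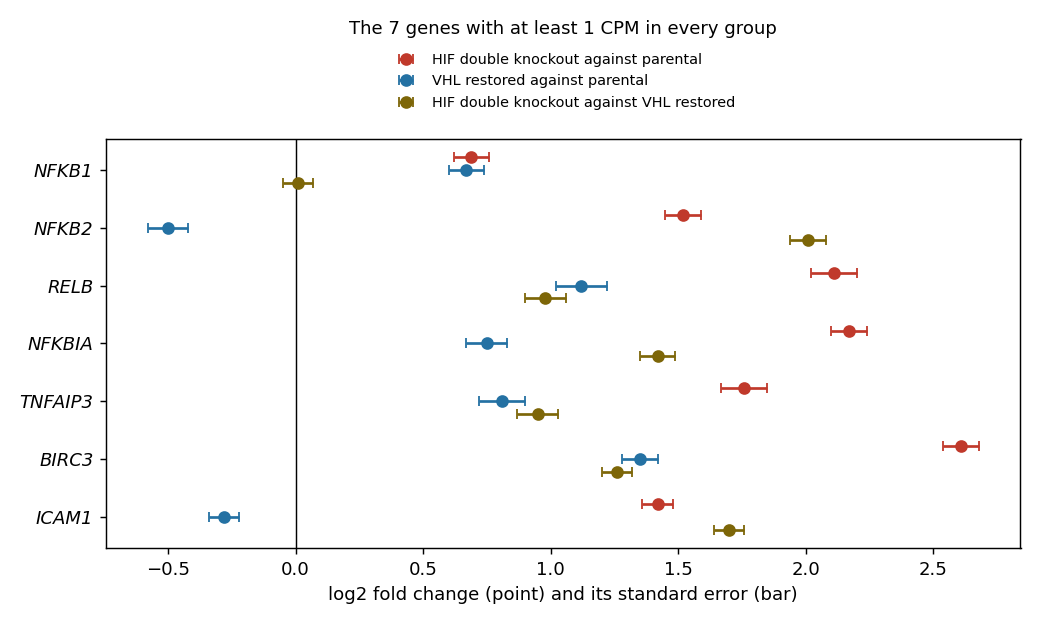
Log2 fold changes (x axis) of the 7 genes present at 1 CPM or more in every group, from the fit across all genes. Points are estimates and bars are standard errors, with double knockout against parental in red, VHL restored against parental in blue and the engineered lines against each other in brown; blue points lie below 0 for NFKB2 and ICAM1, and the brown point of NFKB1 lies at 0.01.

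The other genes of the pathway are given by list, and each count of a list stands beside the 54.1% (double knockout) and 54.2% (VHL restored) of all tested genes that passed against parental cells. The lists were also chosen with earlier results known, so their counts are descriptions too. Of 7 further subunit and IkB genes, 5 rose and 1 fell in double-knockout cells, and 5 rose and 0 fell in VHL-restored cells (median log2 fold change 0.57 and 0.43). NFKBID, an atypical nuclear IkB protein, rose 3.73-fold in double-knockout cells and 2.68-fold in VHL-restored cells. The cytoplasmic inhibitors NFKBIE and NFKBIB rose 2.28-fold and 2.24-fold in double-knockout cells. BCL3, a nuclear IkB protein that serves as a coactivator of p50 and p52 dimers, was highest in VHL-restored cells, at 26.2 ± 0.361 CPM against 6.71 ± 0.568 in parental and 8.91 ± 0.843 in double-knockout cells. The difference of BCL3 between the engineered lines passed (log2 difference -1.55 ± 0.10, adjusted p = 1.2e-14, edgeR). NFKBIZ, a nuclear IkB protein that directs secondary response genes, fell by 0.47 on the log2 scale without HIF (adjusted p = 5.1e-08, edgeR) and rose by 0.43 when VHL was restored (adjusted p = 2.7e-07, edgeR).

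Of 20 genes of the IKK complex and its upstream kinases and adaptors, 10 rose and 2 fell in double-knockout cells (median 0.18). In VHL-restored cells 9 rose and 4 fell (median 0.06). Rises outnumbered falls in both comparisons. Among all genes 26.6% rose and 27.5% fell in the double knockout, and 26.5% rose and 27.7% fell with VHL restored. TRAF1, an adaptor that binds BIRC3 and is itself induced by NF-kB, went from 4.60 ± 0.168 to 200.7 ± 18.8 CPM in the double knockout, a 43.6-fold rise. In VHL-restored cells TRAF1 rose 8.78-fold, to 40.4 ± 1.41 CPM, and the 4.97-fold difference between the engineered lines passed (adjusted p = 2.2e-22, edgeR). IRAK2, a kinase of interleukin-1 and toll-like receptor signalling, rose 4.42-fold and 5.57-fold. CHUK, the IKK subunit of the non-canonical branch, rose 1.77-fold in double-knockout cells, and TRAF3, which restrains that branch, rose 1.68-fold in VHL-restored cells. TRAF5, a further adaptor of TNF-family receptors, was 3.99-fold lower in the double knockout, at 1.42 against 5.68 CPM (edgeR, adjusted p = 8.7e-11), and rose 1.60-fold with VHL restored. MAP3K8, a kinase that is bound by the NFKB1 precursor, was 1.53-fold lower without HIF and 1.96-fold lower with VHL restored. MAP3K14 itself was at 42.7, 43.4 and 41.2 CPM in parental, double-knockout and VHL-restored cells and passed in no comparison (adjusted p from 0.444 to 0.833, edgeR).

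Of 13 further negative regulators, 7 rose and 0 fell in double-knockout cells, whereas 3 rose and 3 fell in VHL-restored cells (median 0.24 and -0.07). ZC3H12A, an RNase that degrades inflammatory transcripts, rose 1.70-fold in double-knockout cells. TNIP1, a partner of the TNFAIP3 protein, went from 190.9 to 106.3 CPM when VHL was restored, -0.85 on the log2 scale (edgeR, adjusted p = 5.2e-13). TRAFD1, an interferon-induced inhibitor, rose 2.33-fold in VHL-restored cells. TNIP3 had 9 counts in double-knockout and 1 in parental libraries and was not called (adjusted p = 0.103, edgeR). No called gene of this list changed 2-fold or more in double-knockout cells, in contrast to NFKBIA and TNFAIP3. Of all genes 6.06% rose and 10.3% fell by that much there. Without parental replicate 1 the 7 became 4.

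Of 14 ligands, receptors and shedding proteases of the TNF family, 6 rose and 3 fell in the double knockout, where 26.6% of all genes rose and 27.5% fell. With VHL restored 7 rose and 4 fell, against 26.5% and 27.7% of all genes (median 0.23 and 0.13). Without parental replicate 1 the latter counts were 4 and 3. LTB, a membrane-anchored ligand whose gene lies near TNF, shared the pattern of TNF: parental libraries held 4 and 1 counts, the double knockout 3 and 3, and the VHL-restored libraries 72 and 75. It was 29.4-fold higher in VHL-restored than in parental cells, with a 95% exact counting interval of 11.5 to 86.0 (adjusted p = 1.1e-11, edgeR). TNFRSF9, a receptor induced on activated lymphocytes, rose 8.62-fold in double-knockout cells and 3.04-fold in VHL-restored cells. The apoptosis-inducing ligand TNFSF10 went from 714.4 to 1537.8 CPM in the double knockout, a 2.15-fold rise. CD40, a receptor of the non-canonical branch, rose 1.66-fold there. The ligand gene TNFSF15 rose 5.24-fold without HIF and 3.65-fold with VHL restored. TNFRSF11A, the receptor of the osteoclast factor RANKL, was 2.87-fold lower with VHL restored (adjusted p = 6.0e-13, edgeR). TNFRSF1A, the main receptor for TNF, had a log2 fold change of -0.33 in the double knockout and 0.55 with VHL restored (adjusted p = 1.7e-05 and 1.7e-09, edgeR). The shedding proteases ADAM17 and ADAM10 were among the genes that fell in each comparison. Their log2 fold changes were -0.56 and -0.58 in the double knockout, and -0.38 and -0.22 with VHL restored.

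The interleukin-1 list held ligands, receptors and processing genes such as CASP4, NLRP3 and GSDMD, at unlike levels. In parental cells GSDMD was at 50.6 CPM and NLRP3 at 0.845 CPM. Of 11 measured genes 4 rose and 0 fell in double-knockout cells, and 2 rose and 3 fell in VHL-restored cells (median 0.79 and 0.55, or 0.48 and -0.26 over the 6 with at least 1 CPM). Without parental replicate 1 the latter counts were 1 and 2. CASP4, an inflammatory caspase that senses cytosolic lipopolysaccharide, went from 16.0 ± 0.187 to 81.3 ± 0.340 CPM in the double knockout, a 5.08-fold rise, and fell by 0.62 on the log2 scale in VHL-restored cells. The decoy receptor gene IL1R2 rose 1.84-fold in double-knockout cells and fell by 1.33 on the log2 scale in VHL-restored cells. The signalling receptor IL1R1 was at 1.29 CPM in parental cells and fell by 1.13 in VHL-restored cells (adjusted p = 0.00295, edgeR). Of 6 toll-like receptors 4 rose and 1 fell in double-knockout cells, and 2 rose and 2 fell in VHL-restored cells. TLR2, which senses bacterial lipopeptides, rose 12.8-fold in double-knockout cells. TLR3, which senses double-stranded RNA, was 24.3-fold lower there and 29.4-fold lower in VHL-restored cells.

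Among 11 measured paralogs and partners of BIRC3 and ICAM1, 5 rose and 3 fell in double-knockout cells, and 2 rose and 4 fell in VHL-restored cells (median 0.17 and -0.14). BCL2A1, an NF-kB-induced survival protein of the BCL2 family, went from 0.262 ± 0.0585 to 12.6 ± 0.284 CPM in the double knockout, a 48.0-fold rise. It was 0.518 ± 0.126 CPM in VHL-restored cells, 24.3-fold lower than in the double knockout (adjusted p = 1.0e-19, edgeR). CFLAR, an inhibitor of caspase-8 activation, fell by 0.91 on the log2 scale in VHL-restored cells. ICAM3, a paralog of ICAM1 best known from leukocytes, rose 1.55-fold in double-knockout and 1.38-fold in VHL-restored cells.

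Of 22 further genes that NF-kB is known to induce, 15 rose and 3 fell in double-knockout cells, and 12 rose and 5 fell in VHL-restored cells (median 1.11 and 0.62). At least 2-fold, 11 rose in the double knockout and 10 with VHL restored, against 6.06% and 6.13% of all genes, and 2 and 3 fell, against 10.3% and 8.4%. The cytokine IL6 was 59.9-fold higher in double-knockout than in VHL-restored cells, at 81.4 and 1.36 CPM, and the chemokine CCL5 was 4.03-fold lower, at 2.58 and 10.4 CPM (adjusted p = 6.4e-27 and 7.0e-14, edgeR). Against parental cells, the largest rises at 1 CPM or more in the double knockout were those of IL6 (45.5-fold), CXCL2 (10.9-fold) and IL8 (7.46-fold). With VHL restored they were those of CXCL3 (28.5-fold, on 2 parental counts) and CCL5 (23.7-fold), and IL6 did not pass (adjusted p = 0.134, edgeR). CCL5 also rose 5.88-fold in the double knockout. The 3 that fell in the double knockout were F3, encoding tissue factor (7.20-fold lower), CCL2 (3.61-fold) and SOD2 (1.14-fold). The 5 that fell with VHL restored were CCL20, F3 (22.2-fold lower), PTGS2 (5.86-fold), SOD2 (1.45-fold) and TNFAIP8 (1.39-fold). The chemokine CCL20 went from 85 and 79 counts to 0 and 3, a ratio of 59.2 with a 95% exact counting interval of 19.6 to 286.2 (adjusted p = 7.6e-13, edgeR). In the direct comparison 14 of the 22 were higher in double-knockout cells and 5 lower, where 28.0% of all genes passed in each direction.

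**Figure D4:**
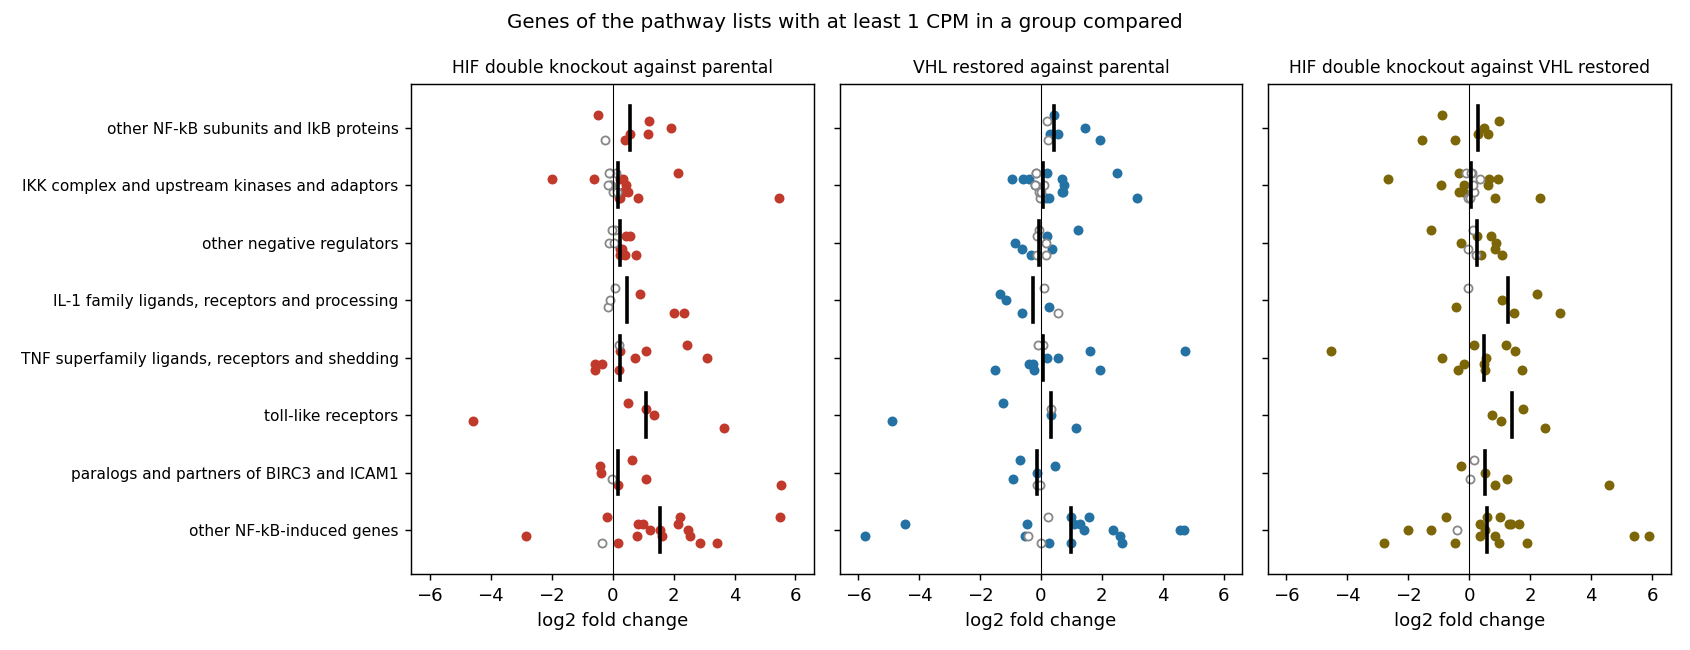
Log2 fold changes (x axis) of the pathway genes with at least 1 CPM in a group compared, by list (rows), for the 3 comparisons (panels). Filled points passed an adjusted p of 0.05, open points did not, and black bars are medians over the points; the lowest row, genes induced by NF-kB, reaches from -2.85 to 5.49 in the left panel.

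The transcripts whose pattern over the 6 libraries was most like that of a given gene were found by the root mean square difference of log2(CPM + 0.5) relative to parental cells, among 11863 genes with at least 1 CPM in every group. For BIRC3 these were PLEKHF1, MN1 and PLAUR, with differences from 0.108 to 0.119. For NFKBIA they were IL4I1 at 0.078, NCEH1 at 0.115 and DAGLA at 0.140. For RELB they were EPHX1 at 0.065, ADORA2A at 0.077 and FBN1 at 0.084. For NFKB2 they were ARHGAP22 at 0.083, MTSS1 at 0.097 and ALDH1A3 at 0.098. PLAUR, the receptor of urokinase, for example stood at 11.2, 75.6 and 27.6 CPM in parental, double-knockout and VHL-restored cells. None of the other 8 genes reported here was among these nearest neighbours.

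TNF, IL1B and ICAM1 are also made by leukocytes and endothelium, so markers of other cell types were read in the same libraries. Of 12 leukocyte markers PTPRC and CD3E had no count in any library, and 4 to 6 of the 12 were at 0 in each. Their summed level was 97.0 and 90.4 CPM in parental libraries, 73.2 and 66.0 CPM in the double knockout, and 32.7 and 34.4 CPM with VHL restored. Most of it came from CD68, a lysosomal protein that tumour cells also make, and ITGB2, an integrin chain whose dimers bind ICAM1. ITGB2 rose 1.47-fold in double-knockout cells and was 4.62-fold lower in VHL-restored cells, while its partner ITGAL had 3 counts in all. Another partner, ITGAM, rose 4.08-fold in the double knockout, from 0.625 to 2.55 CPM, and FCER1G rose 3.03-fold, to 1.25 CPM. With VHL restored CSF1R rose 3.45-fold, to 1.04 CPM, and LYZ had 6 and 0 counts, against 0 and 0 in parental and 1 and 1 in double-knockout libraries. The part of such cells in the levels of TNF, IL1B and ICAM1 was not tested. Of 6 endothelial markers 3 or 4 were at 0 in each library, and their sum was at most 1.86 CPM, mostly TEK. Of 4 fibroblast markers 1 or 2 were at 0 in each library, and their sum, from 2.33 to 14.8 CPM, was mostly PDGFRB. In bulk RNA, fewer expressing cells and less RNA per cell cannot be told apart.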

How the data were processed

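The authors deposited a table of whole-number counts per gene symbol for 6 libraries. The deposited name describes normalization, yet the integers are unscaled and column totals differ, so raw counts were assumed. The submitters' processing notes name HISAT2 2.2.1 and featureCounts 2.0.8, Trimmomatic 0.39 with FastQC 0.74, and limma 3.58.1, with builds hg38 and hg19. The sources used here do not give their settings, the strandedness or the build of the counts. Antisense genes annotated over TNFAIP3 and ICAM1 have no row, so their reads cannot be told apart from those of the gene.

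Genes with at least 1 count were fitted with edgeR 4.0.16 in R 4.3.3 (TMM, quasi-likelihood, 3 group means, common dispersion 0.00194), with Benjamini-Hochberg adjustment over all 18273 genes. SE is the log2 fold change over the root of F. For folds against a group without counts, that group was set to a floor of 3 counts, and the counts of the other group were taken as observed. Counting intervals are exact, conditional on the summed counts, and like floors cover counting error only. Exon lengths are merged exons of GENCODE release 29. DESeq2 1.42.0 was an alternative. On simulated data for double knockout against parental cells (17516 genes), 90% of 50 genes changed 2-fold and 30% of 50 changed 1.2-fold were recovered. Of the calls 1.97% were false. The changed genes lay above a floor of expected counts, so the recovery does not cover TNF or IL1B. Far fewer genes were changed than were called in the data, and the spread was that of these replicates.

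The 10 genes and the pathway lists were chosen with earlier results of these data known. Named genes were drawn from the up to 4 largest called changes at 1 CPM or more of each list and comparison, and not all of these are printed. REL, MAP3K14, TNIP3, TNFRSF1A, ADAM17, ADAM10, PTGS2, SOD2, TNFAIP8 and genes of the marker lists were named outside this rule, after their values were seen. Of list genes with a changed symbol, OTULIN and CXCL8 were read under FAM105B and IL8.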

Additional observations from a re-analysis of the deposited data

How the results depend on the processing

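Alternatives were DESeq2 size factors, median centring, upper quartile scaling, the DESeq2 test, a low-count filter, no filter, a replicate block, a fit of only the groups compared, and leaving out each library. No scaling moved the median of all genes by more than 0.1 on the log2 scale. Of 310 recomputed values of single genes, 298 kept direction and call. NFKB1 between the engineered lines turned sign, to -0.0046 with median centring, -0.03 with upper quartile scaling and to between -0.01 and 0.03 without any 1 library, the lowest without double-knockout replicate 1. The other 9 are the lost calls of IL1B and ICAM1 given above. IL1B did not pass the low-count filter. Without any 1 library, the numbers of the 9 genes called were 7 in double-knockout and 7 to 9 in VHL-restored against parental cells, and 7 to 8 between the engineered lines. Of the list counts, negative regulators called in double-knockout cells ranged from 4 to 7 without any 1 library. In VHL-restored cells the interleukin-1 list ranged from 3 to 5 and the TNF family list from 7 to 11. Toll-like receptors between the engineered lines ranged from 3 to 4 against 5 with all libraries, and were 3 with DESeq2. Labels give groups the same replicate numbers, but same-numbered deviations correlated at 0.175, -0.008 and 0.016 between pairs of groups, so the numbers were not taken as pairs. With the replicate block 10112, 10148 and 10458 genes were called, against 9888, 9898 and 10225 without it, and no call of the 9 genes changed. Depth limits IL1B and TNF, which rest on 11 and 64 counts in all 6 libraries.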
